A study of Arabidopsis thaliana with 6 samples.

Results

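The transcriptome described here is that of wild-type *Arabidopsis thaliana* inflorescences of the Col-0 ecotype, collected up to floral stage 12 from plants grown in long days, in 3 biological replicates that were each a pool of plants. These were 3 of the 6 samples of a study of transmitting tract development, and the other samples, from the *stk ces-4 bee1 bee3* quadruple mutant, were not used. Polyadenylated RNA was sequenced, and each gene had 1 value per replicate in CPM, the gene's reads relative to the size of the library. All genes with values were described, 21799 of the 21801 entries of the table, and no gene was chosen by its level. Because the samples formed a single group, levels, ranks and the spread between replicates were described and no test was made. Where 3 values are given for a gene, they are those of replicates 1, 2 and 3 in that order, and a mean is followed by its SD over the 3 replicates.

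An inflorescence holds the shoot meristem, flower buds of many ages and the stem between them, so its RNA is an average over many cell types. MADS-domain transcription factors act in combinations that specify sepals, petals, stamens and carpels. Inside the anther, the tapetum, a nurse cell layer, makes the materials of the pollen wall and pollen coat for the developing grains, and inside the carpel the ovules and the transmitting tract form. In such bulk RNA, fewer cells of a type and less RNA per cell cannot be told apart.

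The markers of the labelled tissue were present, and most of those of root and seed were not. Of 12 floral organ identity genes 11 had values, all of at least 1 CPM, and only *UFO*, an F-box cofactor of LEAFY, was not among the listed genes. All 10 genes of the carpel and ovule list, 18 of 19 of the tapetum and pollen wall list and all 11 of the mature pollen and sperm list had values. Of 9 root genes only 2 had values, *COBL9* at 3.91, 4.07 and 1.67 CPM and *PYK10*, a root beta-glucosidase, at 0.736, 0.678 and 1.02 CPM. Of 11 seed storage and embryo genes only *FUS3* and *SESA4* had values, at 3.08, 2.77 and 3.34 CPM and at 0.874, 0.432 and 0.538 CPM. The 15 leaf photosynthesis genes were all present at high levels, as described further on.

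Sequencing depth was read from the spacing of low values: 1 read was worth 0.0460, 0.0617 and 0.0538 CPM, so that the genes with values shared 21.1, 15.9 and 17.59 M reads. Replicate 2 was thus the shallowest library. With 3 reads as the smallest amount counted as detected, the floor was 0.138, 0.185 and 0.161 CPM, a limit that covers counting error only. At or above that floor in every replicate were 21588 genes, while 26 were below it in all replicates and 6 were at 0 in all. A single 18S ribosomal RNA locus (AT3G41768, chromosome 3, 14197677 to 14199484 in TAIR10.1) took 1.52%, 2.63% and 1.62% of the summed CPM of these polyadenylated libraries, the largest share being in replicate 2. Chloroplast loci took 0.870%, 1.32% and 1.10%, and mitochondrial loci between 0.132% and 0.167%.

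The wild-type inflorescence expressed most of its listed genes at moderate levels. The median gene had 18.8 CPM, the 10th percentile lay at 1.43 CPM and the 90th at 93.9 CPM. A mean of at least 1 CPM was reached by 20193 genes, of at least 10 CPM by 14260, of at least 100 CPM by 1984 and of at least 1000 CPM by 42. Since a long transcript gives more reads than a short one, levels of different genes are compared in CPM per kb of transcript, for the 21600 genes with a RefSeq transcript length, and a rank given in CPM tells only which genes took most reads. On that scale the median gene had 11.01 CPM per kb, the 10th percentile was 1.09 and the 90th was 53.9. Protein-coding genes of the nucleus, 21062 in number, held 96.0% of the summed CPM and had a median of 11.38 CPM per kb. The 171 long non-coding RNA genes had a median of 1.96 CPM per kb. The 227 genes annotated as pseudogenes, without those annotated as transcribed pseudogenes, had one of 0.884 CPM per kb.

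Expression was concentrated in few genes. In CPM, the 100 highest genes held 13.02%, 13.95% and 13.27% of the total (mean 13.4% ± 0.485), and 11.8% ± 0.107 when the 18S locus was left out, which removed most of the difference of replicate 2. The 1000 highest genes held 38.8% ± 0.181. In CPM per kb without the 18S locus, 1516 genes, 7.02% of those with a length, held 50% of the sum. The identity of the highest genes was stable between replicates: 82 of 100 were among the 100 highest per kb in all 3.

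Photosynthesis, chemical defence, pollen coat and translation supplied the most abundant messages. The protein-coding gene that took most reads, with no account of length, was *TGG2* (AT5G25980, chromosome 5, 9072708 to 9075777), a myrosinase that cleaves glucosinolates upon wounding, at 3071, 3791 and 2410 CPM (mean 3090 ± 691). Its tandem relative *TGG1* had 1911, 2282 and 1612 CPM, so for both genes replicate 2 was the highest and replicate 3 the lowest. *GRP17*, an oleosin-like protein of the pollen coat made in the tapetum, had 3154, 3004 and 2853 CPM, close together with a coefficient of variation (CV, SD over mean) of 5.005%. *RBCS1A* (AT1G67090, chromosome 1, 25048158 to 25049667), a small subunit of Rubisco, had 3036, 2902 and 3040 CPM and a CV of 2.63%. *VSP1*, a vegetative storage protein induced by jasmonate, had 3062, 3046 and 2506 CPM, and *BGLU18*, a beta-glucosidase of ER bodies that releases abscisic acid from its glucose ester, had 2600, 2566 and 2278 CPM.

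Scaled by length, short transcripts took more of the first places. After the 18S locus, the order per kb was *RBCS1A* at 2360, the lipid transfer protein gene *LP1* at 2278, *TCTP*, the translationally controlled tumour protein, at 2202, *VSP1* at 2179 and *CAB1*, a chlorophyll a/b-binding protein, at 2071 CPM per kb. The order among these is uncertain at *LP1*, with 2134, 1604 and 1948 CPM (CV 14.2%), and at *VSP1*, with a CV of 11.02%, whereas *RBCS1A* and *CAB1* had CVs of 2.63% and 5.44%. *MT2B*, a small metallothionein that binds metal ions, followed at 1990 CPM per kb with 1152, 852 and 1406 CPM, lowest in replicate 2. *GRP7*, an RNA-binding protein under circadian control, stood at 1446, *KIN2*, a cold- and abscisic acid-induced protein, at 1251 and AT3G07850, a pectin lyase-like protein, at 1060 CPM per kb. The value of *RBCS3B*, at 1444 CPM per kb, is less certain than its spread says, because near-identical copies such as *RBCS1B* can share reads that the authors' software divides between them.

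Regulators of floral organs were expressed well above the median gene. The 11 organ identity genes had a median of 73.8 CPM per kb, at the 93.2 percentile of all genes, and a median CV of 8.07%, against a median of 11.01 CPM per kb and a CV of 10.14% over all genes. *PI*, needed for petals and stamens, had 232, 229 and 222 CPM, the highest of the list per kb at 185 CPM per kb. Its partner *AP3* had 136, 156 and 112 CPM and varied more, with a CV of 16.2%. Of the E-class genes that act with all the others, *SEP3* had 179, 191 and 171 CPM (142 CPM per kb), *SEP2* (AT3G02310) 196, 179 and 181 CPM (124 CPM per kb) and *SEP1* (AT5G15800) 117, 113 and 119 CPM (82.2 CPM per kb). *AP1*, a gene of sepals and petals, stood at 73.8 CPM per kb, *AG*, a gene of stamens and carpels, at 49.5 and *AP2* at 21.1. Lowest of the list were *CAL*, at 5.97 CPM per kb with 8.46, 7.83 and 5.87 CPM, and *LFY*, at 3.19 CPM per kb with 4.00, 3.08 and 5.005 CPM.

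The genes mutated elsewhere in the study had unequal levels in the wild type. *STK*, the MADS-domain gene of ovule identity, had 50.3, 54.3 and 49.7 CPM (mean 51.4 ± 2.47), which is 41.4 CPM per kb. *CES*, a bHLH factor of brassinosteroid responses, had 36.9, 39.5 and 34.5 CPM (mean 36.9 ± 2.48) and 36.9 CPM per kb. Between these neighbours the difference in CPM per kb was small beside the gap to *BEE1*, a related bHLH gene with 9.93, 13.2 and 10.12 CPM (9.82 CPM per kb), and *BEE3*, with 4.88, 4.38 and 3.71 CPM (3.99 CPM per kb).

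Genes of the carpel and ovule had intermediate levels. The 10 genes had a median of 18.1 CPM per kb, at the 64.5 percentile, with a CV of 8.31%. Below *STK* came *CRC*, a carpel and nectary factor, at 29.7 CPM per kb, *ANT*, a growth regulator of ovules and floral organs, at 28.1 and the valve margin genes *SHP2* and *SHP1* at 25.7 and 22.4. *SHP1* and *SHP2* were measured tightly, at 36.6, 33.6 and 33.2 CPM and at 31.7, 32.8 and 34.1 CPM. *INO*, which acts in the outer integument, stood at 8.84 CPM per kb and *NTT*, a zinc finger gene of the transmitting tract, at 8.89. *HEC1*, a bHLH gene of the same tissue, was the lowest at 1.27 CPM per kb, with 1.52, 2.16 and 0.807 CPM, which is few reads.

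Meristem genes were at or above the median of all genes and the meiotic genes were low. The 4 meristem genes with values had a median of 16.2 CPM per kb, at the 61.1 percentile. *STM*, which maintains the shoot meristem, had 52.5, 54.1 and 50.9 CPM and 30.8 CPM per kb, while *WUS*, active in few cells below the stem cells, had 18.03, 13.9 and 11.6 CPM and 11.6 CPM per kb. *CLV3*, the peptide gene of the same loop, had no listed value. The 6 meiosis genes had a median of 1.36 CPM per kb, at the 12.0 percentile, and the highest of them, the recombinase gene *DMC1*, had 13.02, 13.6 and 10.9 CPM. The 8 genes of mitosis and cytokinesis had a median of 20.6 CPM per kb, at the 69.2 percentile.

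The anther contributed both very high and very low genes. The 18 tapetum and pollen wall genes had a median of 46.4 CPM per kb (87.9 percentile) and ranged between 1.46 and 1608 CPM per kb. Below *GRP17* came *EXL4*, a lipase of the pollen coat, at 411, 487 and 338 CPM (318 CPM per kb). The regulators of the tapetum were lower, with *AMS* at 40.2, 50.5 and 33.3 CPM (21.8 CPM per kb), *MS1* at 5.38, 8.63 and 4.36 CPM (2.79 CPM per kb) and *MYB80* at 1.43, 1.97 and 0.807 CPM (1.46 CPM per kb). *DYT1*, the bHLH factor upstream of *AMS*, had no listed value. The 11 genes of mature pollen and sperm ranged between 0.134 and 733 CPM per kb. At the top were pollen tube genes, *VGD1*, a pectin methylesterase, at 1747, 1366 and 1850 CPM and *PPME1*, another such enzyme, at 658, 537 and 703 CPM. Sperm and germline genes were low, with *DUO1*, a MYB factor of the male germline, at 1.24, 0.617 and 1.99 CPM and *GEX2*, a sperm surface protein, at 0, 0 and 1.23 CPM.

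Photosynthesis genes stood higher per kb than any other list or class. The 15 leaf photosynthesis genes had a median of 361 CPM per kb, at the 99.3 percentile, with a median CV of 5.35%, and the 56 measured genes whose product names a light-harvesting or photosystem protein had a median of 169 CPM per kb and a CV of 6.98%. *PSBO1*, of the oxygen-evolving complex, had 1007, 1062 and 1056 CPM. *RCA*, Rubisco activase, had 1283, 1342 and 1217 CPM, again with all 3 replicates close together. Other classes by product name also had high medians: 311 of 360 cytosolic ribosomal protein genes had values, with a median of 108 CPM per kb (95.8 percentile), 19 tubulins and actins had a median of 91.9, 21 aquaporins one of 82.9 and 44 histones one of 77.9 CPM per kb. The 23 proteasome subunits had a median of 49.3 and the 80 translation factors one of 36.8 CPM per kb.

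**Figure D1:**
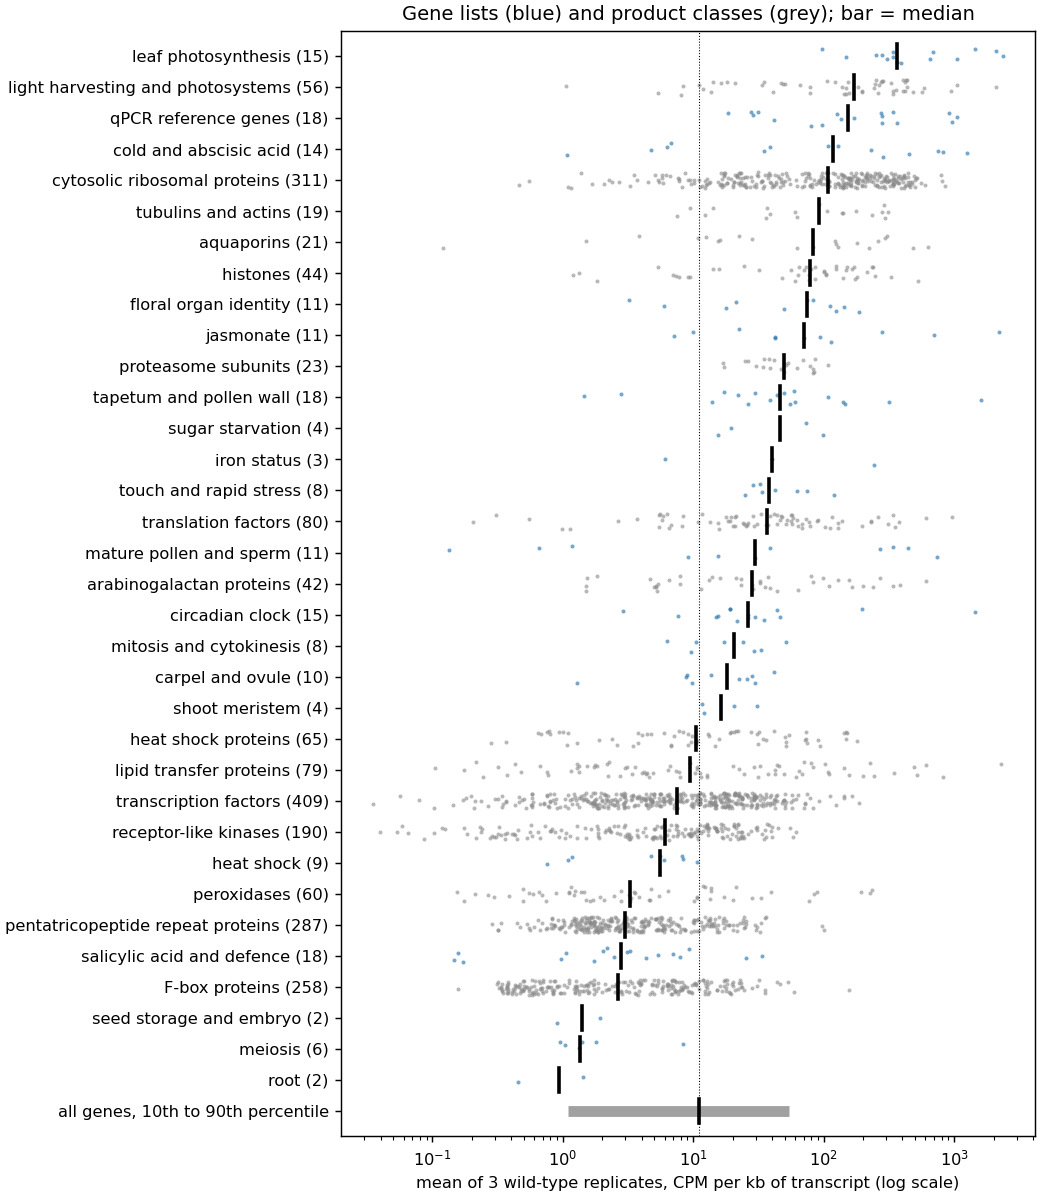
Mean level of each gene over the 3 wild-type replicates in CPM per kb of transcript (log axis), by gene list (blue) and product class (grey), with the number of genes in brackets and a bar at the median. The dotted line is the median of all genes, 11.01 CPM per kb. Leaf photosynthesis genes had the highest median, 361, and the root genes, of which 2 of 9 had values, the lowest.

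The plot of levels by list shows how wide most groups were: arabinogalactan proteins, for instance, ran between 1.51 and 602 CPM per kb around a median of 28.2. Regulatory and repeat-containing families were at the low end. Of 653 F-box proteins in the annotation 258 had values, with a median of 2.65 CPM per kb (19.7 percentile), and of 313 pentatricopeptide repeat proteins, which process organellar RNA, 287 had values, with a median of 2.998. Transcription factors, 409 of 550, had a median of 7.44 and receptor-like kinases, 190 of 242, one of 6.005 CPM per kb. Class III peroxidases and other genes named peroxidase had a median of 3.24 CPM per kb, and of 133 lipid transfer proteins 79 had values around a median of 9.41, although *LP1* of that class was the third highest of all genes.

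Ribosomal protein promoters in plants often carry the telo-box, AAACCCTA, and site II elements, TGGGCC or TGGGCT, and both were counted on either strand in the 250 bases before the annotated start of each protein-coding gene (sequences from RefSeq, TAIR10.1). The telo-box was found in 17.7% of the 311 ribosomal protein promoters and in 4.23% of all 21061 promoters, and a site II element in 58.8% of the 311 and in 22.1% of all. The promoter of AT4G27090, a ribosomal protein L14 gene at 543, 597 and 704 CPM and with 842 CPM per kb the 27th gene of all, is shown because it held both. It lies on the minus strand at chr4:13595253-13595502, and capitals mark the telo-box 49 bases before the start and TGGGCC at 62 and 94 bases, read on either strand.
AT4G27090: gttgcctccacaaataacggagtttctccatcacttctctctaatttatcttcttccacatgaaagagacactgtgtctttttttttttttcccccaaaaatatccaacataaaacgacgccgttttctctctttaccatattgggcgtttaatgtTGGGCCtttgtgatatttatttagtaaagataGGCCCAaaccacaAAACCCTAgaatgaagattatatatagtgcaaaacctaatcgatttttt
A match of this kind is a description of the sequence and not a binding site.

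Gene structure and promoter letters changed along the order of levels. In the highest decile of protein-coding genes (median 95.5 CPM per kb) 29.7% of promoters held a site II element, against 12.0% in the lowest decile (median 0.601 CPM per kb), and for TGGGCC alone the shares were 23.1% and 7.50%. The share with TATAAA on the gene's strand was 31.5% in the highest decile and 36.1% in the lowest, and the telo-box share was 5.46% and 6.31%. Transcripts were short at the top, with a median of 1339 bases and 4 exons, and were longest in the fifth decile, at 1816 bases and 5 exons. Genes with a single exon made up 12.0% of the highest decile and 29.4% of the lowest. The length at the top depends on the scale, because dividing by length favours short transcripts: ranked in CPM, the highest decile had a median of 1846 bases.

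Replicates of the wild type differed modestly at most genes. Over the 20193 genes of at least 1 CPM, the median CV was 10.14%, with 3.56% at the 10th and 26.4% at the 90th percentile. The CV expected from counting of reads had a median of 4.997% over genes, and 80.1% of genes varied more than expected from counting. A median CV over 3 values lies below the expected one by construction, so these 2 medians are not directly comparable. With the counting part removed, a CV of 11.1% was left (from the median squared CV over genes, corrected for 3 values per gene), termed the excess CV below. Without replicate 2 the median CV was 7.19%, without replicate 3 it was 7.93% and without replicate 1 it was 9.80%. A CV over a pair of values is lower by construction. The excess CV, corrected for the number of values, was 9.51% without replicate 2, 10.6% without replicate 3 and 13.6% without replicate 1.

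The spread fell with level and then stopped falling. Genes under 1 CPM had a median CV of 36.2%, and the CV expected of counting had a median of 29.9%. In the bin of 10 to 20 CPM the median CV was 9.81% against 6.08% by counting, and in the bin of 50 to 100 CPM it was 7.65% against 2.84%. Above 500 CPM the 145 genes had a median CV of 8.45% where counting would give 0.873%, so at high levels read counting made up little of the spread. The excess CV was 31.6% under 1 CPM, 8.74% between 50 and 100 CPM and 10.11% above 500 CPM. The rank correlation of CV with level was -0.39 across genes of at least 1 CPM and -0.12 across those of at least 10 CPM, a description across genes that share the same 3 libraries.

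**Figure D2:**
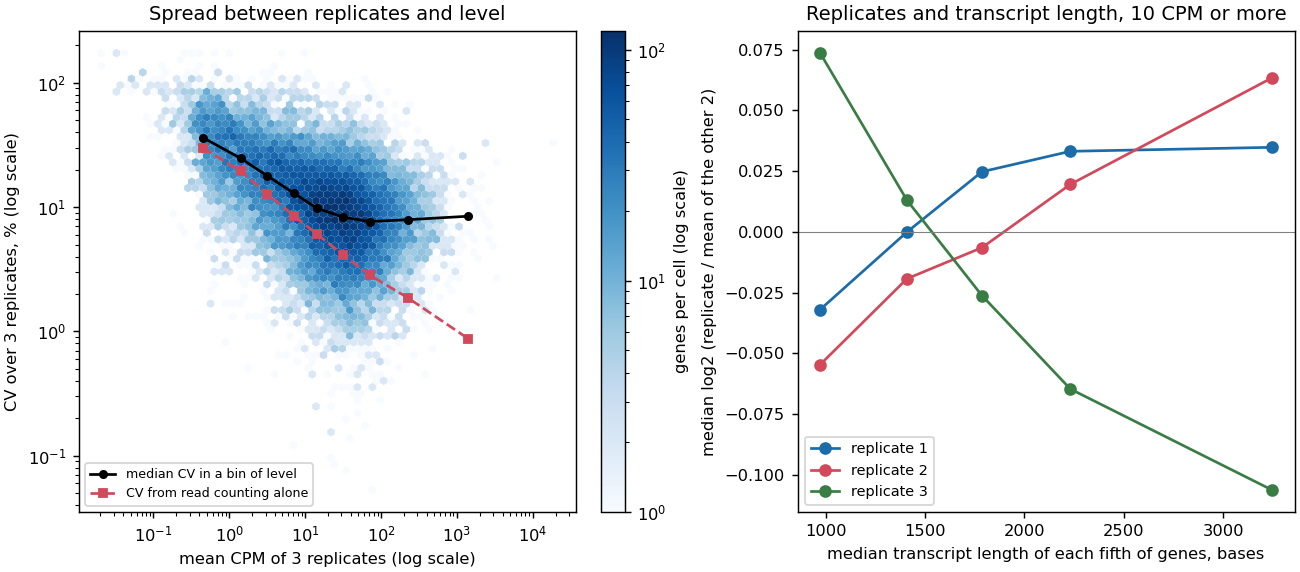
Left, CV over the 3 replicates (%) against mean CPM, both on log axes, with the colour giving the number of genes per cell; the black line is the median CV in bins of level and the dashed red line the CV of read counting alone. Right, median log2 ratio of each replicate to the mean of the other 2 for 5 equal groups of genes of at least 10 CPM, ordered by transcript length in bases. The lines on the left part at high levels, at 8.45% and 0.873%, and on the right replicate 3 slopes opposite to replicates 1 and 2.

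Variable genes differed from steady ones in structure. Among genes of at least 10 CPM, those with a CV over 20% had a median of 3 exons and a single exon in 24.6% of cases, and 13.2% of their promoters held a site II element. Those with a CV under 5% had a median of 7 exons, a single exon in 6.31% and site II in 28.4%, at a similar median level (17.9 and 20.12 CPM per kb). A CV under 5% was found for 3302 of 14260 genes (23.2%), one over 20% for 1321 (9.26%) and one over 50% for 87 (0.610%). By type, long non-coding RNA genes of at least 1 CPM had a median CV of 22.6% and protein-coding genes one of 9.99%, at lower levels of the long non-coding RNAs, as given above.

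The 15 smallest CVs among genes of at least 10 CPM lay between 0.0531% and 0.282%. *NINJA*, the adaptor between jasmonate repressors and TOPLESS, had 82.3, 82.4 and 82.3 CPM. *EMF2*, a Polycomb subunit that represses flowering, had 48.2, 48.2 and 48.0 CPM. Read counting alone gives these 15 genes a larger CV, between 2.47% and 6.13%, so their order by CV carries no information. *TUB4*, a beta-tubulin at 425, 424 and 421 CPM, had a CV of 0.459%, also smaller than read counting gives. Genes of 100 to 500 CPM had a median counting CV of 1.87%.

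Genes commonly used as qPCR references were high and moderately steady. The 18 genes had a median of 153 CPM per kb (97.2 percentile) and a median CV of 7.21%, and none had a replicate 2-fold from the others. *ACT2* had the smallest CV, 1.11% at 361, 360.2 and 368 CPM, which is no larger than read counting gives. It was followed by *TUB2* at 1.35%, *ACT8* at 3.01% and *UBQ5* at 3.51%. *UBQ10* was the least steady, with 1686, 1253 and 1565 CPM and a CV of 14.9%, and *ROC1*, a cyclophilin, had 245, 198 and 266 CPM and a CV of 14.7%. *PP2AA3* and *MON1*, both often chosen for their stability, had 73.1, 74.4 and 61.1 CPM and 45.6, 46.1 and 38.3 CPM, each lowest in replicate 3. With 3 values per gene, these CVs are themselves imprecise.

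**Figure D3:**
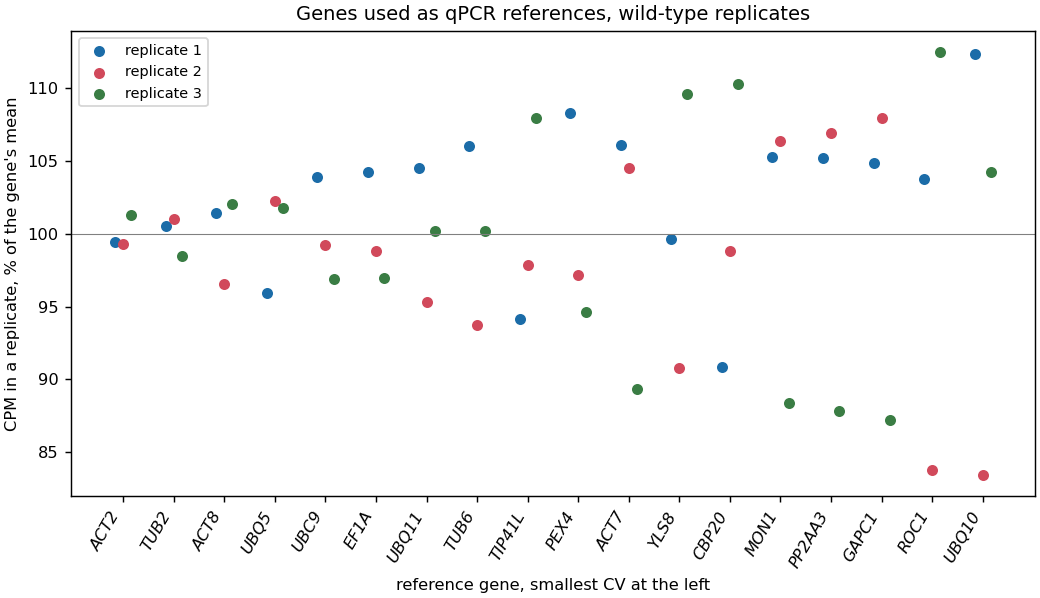
CPM of 18 qPCR reference genes in each wild-type replicate, as a percent of the gene's mean over the 3 replicates, ordered by CV. *ACT2* lies within 2% of its mean in every replicate, whereas *UBQ10* and *ROC1* are lowest in replicate 2 and *GAPC1*, *PP2AA3* and *MON1* are lowest in replicate 3.

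Across genes the replicates correlated closely, but replicate 2 stood farther from the others. Pearson's r of the log2 values was 0.990 for replicates 1 and 3, 0.982 for 1 and 2 and 0.978 for 2 and 3, and the median difference in level was 10.7%, 11.9% and 14.9% in the same order. Replicate 2 was the farthest from the other 2 for 41.4% of genes, replicate 3 for 34.7% and replicate 1 for 24.0%. Of the 20193 genes of at least 1 CPM, 344 (1.7%) were at least 2-fold higher in replicate 2 than the mean of the other 2 and 212 (1.05%) at least 2-fold lower. The same counts were 41 (0.203%) and 148 (0.733%) for replicate 1 and 48 (0.238%) and 213 (1.05%) for replicate 3. For replicates 1 and 3 that mean includes replicate 2, so a gene high in replicate 2 alone can count as lower in both. Taken in pairs, 162 of these genes were at least 2-fold apart between replicates 1 and 3, 562 between 1 and 2 and 718 between 2 and 3. Among genes of at least 10 CPM, 124 (0.87%) were at least 2-fold higher in replicate 2 and 38 (0.266%) lower. Both level filters used the mean of all 3 replicates, so a high replicate 2 can lift a gene over them. A low replicate 2 can drop a gene below them. The excess of higher genes is thus partly built in. AT5G41740, for instance, had 29.3 CPM in replicate 2, against 3.93 and 3.77 CPM in replicates 1 and 3.

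**Figure D4:**
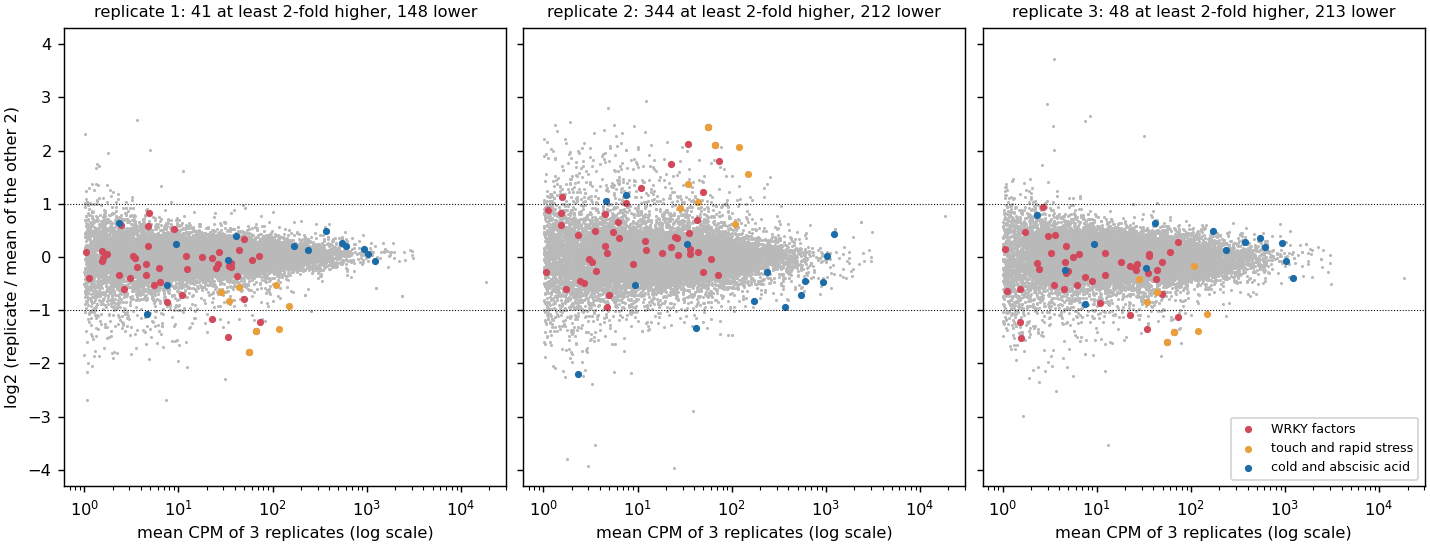
Log2 ratio of each wild-type replicate to the mean of the other 2 against mean CPM (log axis), 1 panel per replicate, for genes of at least 1 CPM; dotted lines mark a 2-fold difference. The counts in the titles include genes whose ratio is infinite, which are not drawn, and *WRKY33* and *WRKY40*, in 2 groups, are drawn in the colour of the touch genes. In replicate 2, 6 of 8 touch genes (orange) lie above the upper dotted line. Of the 22 WRKY factors of at least 10 CPM, 7 do, counting *WRKY33* and *WRKY40*, and the others of these 7 are red. Of the 14 cold and abscisic acid genes (blue) 9 lie below 0.

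Replicate 2 carried higher levels of genes for rapid stress and immune responses. The WRKY family of transcription factors acts early in responses to pathogens and wounding, and 7 of its 22 members with at least 10 CPM were at least 2-fold higher in replicate 2 and none lower, against 0.87% higher over all such genes. *WRKY40* had 123 CPM in replicate 2, against 21.2 and 23.63 CPM in replicates 1 and 3, a log2 ratio of 2.45. *WRKY33* had 135 CPM in replicate 2, against 31.7 and 31.3 CPM in the other replicates (log2 ratio 2.105). *WRKY46* had 69.8 CPM in replicate 2, against 15.3 and 16.6 CPM (2.13), and *WRKY18* 139 CPM, against 38.5 and 40.7 CPM (1.81). In each of these genes replicates 1 and 3 lay close together and only replicate 2 stood apart. Another of the 7, *WRKY48*, had 17.9 CPM in replicate 2, against 7.59 and 7.05 CPM. It reached a mean of 10 CPM only through replicate 2. Over all 53 WRKY genes with values, the sum was 1249 CPM in replicate 2, against 759 and 753 CPM in replicates 1 and 3.

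WRKY proteins bind W-boxes with the core TTGAC, which was searched on both strands of the same 250 bases. It was found in 64.8% of 122 promoters of protein-coding genes at least 2-fold higher in replicate 2 and in 43.7% of the 14064 of at least 10 CPM. Classes by product name differed too, with the core in 57.4% of 190 receptor-like kinase promoters and in 39.1% of 409 transcription factor promoters. The promoters of *WRKY40* (plus strand, chr1:30383311-30383560) and *WRKY33* (plus strand, chr2:16107985-16108234) are shown with the core in capitals, 160 bases before the start in the first and 31 and 95 bases before it in the other, all on the reverse strand.
WRKY40: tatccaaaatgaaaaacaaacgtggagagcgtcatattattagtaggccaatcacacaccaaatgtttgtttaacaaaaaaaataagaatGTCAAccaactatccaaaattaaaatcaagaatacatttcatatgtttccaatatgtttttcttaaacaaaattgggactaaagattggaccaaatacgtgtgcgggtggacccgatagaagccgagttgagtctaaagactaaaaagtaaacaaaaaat
WRKY33: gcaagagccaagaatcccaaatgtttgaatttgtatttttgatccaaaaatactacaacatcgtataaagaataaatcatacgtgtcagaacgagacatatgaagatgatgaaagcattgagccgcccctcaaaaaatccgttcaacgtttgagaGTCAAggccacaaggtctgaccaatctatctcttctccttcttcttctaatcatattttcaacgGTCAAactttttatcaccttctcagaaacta
CGCGTT, bound by calmodulin-binding transcription activators, was found on either strand in 9.84% of the 122 promoters and in 2.81% of the 14064. It is shown in capitals for AT5G41740 (plus strand, chr5:16688376-16688625), 53 bases before the start of the gene with the largest ratio of replicate 2.
AT5G41740: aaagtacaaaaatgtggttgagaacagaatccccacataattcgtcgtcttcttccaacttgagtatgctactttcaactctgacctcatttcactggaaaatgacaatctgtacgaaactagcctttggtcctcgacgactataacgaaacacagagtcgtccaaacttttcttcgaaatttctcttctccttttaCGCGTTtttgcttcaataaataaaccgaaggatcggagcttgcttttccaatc
That gene encodes an immune receptor of the TIR-NBS-LRR class and had 29.3 CPM in replicate 2, against 3.93 and 3.77 CPM in replicates 1 and 3 (log2 ratio 2.93). Its neighbour AT5G41750, of the same class, had 28.4 CPM in replicate 2, against 7.25 and 5.92 CPM. Both motifs were chosen after the values were seen, and no share above was tested.

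The touch and rapid stress list moved most among the lists. Like the other lists, it was chosen with earlier results of these data known, and it includes *WRKY33* and *WRKY40*, described above. All 8 genes of the touch and rapid stress list were highest in replicate 2, against 36.9% of all genes, and their sum was 1072 CPM in replicate 2, against 365 and 375 CPM in replicates 1 and 3. The median level of the list lay at the 84.3 percentile of all genes, and at the 73.7 percentile without replicate 2. *TCH4*, a xyloglucan endotransglucosylase that loosens cell walls, had 239.5 CPM in replicate 2, against 58.1 and 56.8 CPM (log2 ratio 2.06). *TCH3*, a calmodulin-like protein, had 268 CPM in replicate 2, against 93.8 and 86.5 CPM (1.57), whereas the related *TCH2* had 141 CPM, against 83.6 and 99.5 CPM (0.62). *EXO*, a growth gene of the brassinosteroid response, had 158 CPM in replicate 2, against 42.4 and 32.7 CPM (2.08), and *CYP707A3*, an enzyme that degrades abscisic acid, had 67.1 CPM, against 17.8 and 16.1 CPM (1.99). Of 49 genes of at least 10 CPM with products naming ethylene response or integrase-type factors, 8 were at least 2-fold higher in replicate 2. None of them was 2-fold lower. Of 58 genes naming disease resistance proteins, 6 were higher, but most of these 6 reached a mean of 10 CPM only through replicate 2. Some of the 8 did as well, such as *ERF6* with 27.7 CPM in replicate 2, against 8.92 and 8.56 CPM. The filter on level thus raised these counts in part.

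Hormone lists followed in part. Of 15 salicylic acid and defence genes of at least 1 CPM, 14 were highest in replicate 2, and of 11 jasmonate genes 8 were, again beside 36.9% of all genes. *SARD1*, a regulator of salicylic acid synthesis, had 8.14 CPM in replicate 2, against 2.02 and 2.37 CPM (log2 ratio 1.89), but *ICS1*, the synthesis gene it activates, had 5.30 CPM, against 5.34 and 4.79 CPM (0.07). *PR1*, a late marker of the pathway, was at or near the floor, with 0.0617 CPM in replicate 2, against 0.0920 and 0.269 CPM. Among jasmonate genes, *LOX3*, a lipoxygenase, had 362 CPM in replicate 2, against 153 and 140.2 CPM (1.30), and *OPR3*, a reductase of jasmonate synthesis, had 208 CPM, against 118 and 110.2 CPM (0.87). The more abundant *VSP2* had 963 CPM in replicate 2, against 1056 and 954 CPM, and *LOX2*, another lipoxygenase, 881 CPM, against 897 and 719.6 CPM, so in both replicate 2 lay between the others.

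Genes that were lower in replicate 2 included several that abscisic acid is known to induce. Of 14 cold and abscisic acid genes 9 were lowest in replicate 2, against 36.7% of all genes. *RAB18* (AT5G66400), a dehydrin, had 20.5 CPM in replicate 2, against 49.3 and 54.0 CPM (log2 ratio -1.33), and *RD29B*, another classic marker, 0.678 CPM, against 3.04 and 3.23 CPM (-2.21). *AFP1*, an inhibitor of abscisic acid signalling that the hormone induces, had 19.1 CPM in replicate 2, against 41.5 and 52.5 CPM (-1.30). The phosphatase genes *HAI1* and *ABI2*, negative regulators of the same pathway, had 40.0 and 22.4 CPM in replicate 2, against 86.3 and 45.2 CPM in replicate 1 and 96.4 and 50.4 CPM in replicate 3. Not every member followed, and 4 of the 14 were highest in replicate 2, beside 36.9% of all genes. *ERD10*, a related dehydrin, had 1469 CPM in replicate 2, against 1178 and 1006 CPM. *COR47* had 1044 CPM in replicate 2, against 1060 and 1001 CPM. Counted in either direction, 4 of the 14 were at least 2-fold from the others in replicate 2.

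The G-box CACGTG, the core of many abscisic acid response elements, was found in 16.7% of 36 promoters of protein-coding genes at least 2-fold lower in replicate 2 and in 8.06% of the 14064. It is shown in capitals for AT5G50360, a von Willebrand factor A domain protein with 9.68 CPM in replicate 2, against 21.8 and 26.2 CPM (log2 ratio -1.31), 62 bases before the start on the minus strand at chr5:20506355-20506604.
AT5G50360: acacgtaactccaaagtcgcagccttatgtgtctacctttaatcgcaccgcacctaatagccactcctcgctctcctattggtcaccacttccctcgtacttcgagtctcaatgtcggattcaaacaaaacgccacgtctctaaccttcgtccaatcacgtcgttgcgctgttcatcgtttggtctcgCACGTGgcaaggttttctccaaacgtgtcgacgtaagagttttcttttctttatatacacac
The light-harvesting class held the same letters in 25.5% of its promoters and the circadian clock list in 40.0% of 15.

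Water channels were also lower in replicate 2. Of 20 aquaporin genes of at least 1 CPM, 12 were lowest in replicate 2, beside 36.7% of all genes, and 15 were highest in replicate 1, beside 30.8%. *PIP2B* had 45.9 CPM in replicate 2, against 142 and 111 CPM, and *RD28*, its near-identical neighbour, 34.8 CPM, against 104 and 87.0 CPM. Reads of these genes can be exchanged between them, but their sum, 80.8 CPM in replicate 2, against 246 and 198 CPM, moved the same way. Among genes of at least 10 CPM the largest drops were those of AT5G45430, a protein kinase family gene at 2.27 CPM in replicate 2, against 34.5 and 36.8 CPM (log2 ratio -3.97), and AT1G12010, an oxygenase family gene at 7.34 CPM, against 55.6 and 53.0 CPM (-2.89). In replicates 2 and 3 the value of AT5G45430 was not a whole number of reads, so its reads may be shared with another locus. *HIS1-3*, a linker histone induced by drought, had 26.8 CPM in replicate 2, against 65.9 and 69.6 CPM. Clock genes were lowest in replicate 2 in 11 of 15 cases, *PRR9* with 1.70 CPM, against 7.57 and 7.64 CPM, and *CCA1*, a core gene, with 56.5 CPM, against 77.5 and 73.6 CPM. Of the other core genes, *LHY* had 126 CPM, against 114 and 117 CPM, and *TOC1* 127 CPM, against 128 and 133 CPM.

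Anther genes took opposite orders in the replicates. Of 18 tapetum and pollen wall genes 16 were highest in replicate 2 and lowest in replicate 3, an order held by 22.6% of all genes, and all 18 were lowest in replicate 3, beside 37.7%. *ACOS5*, a fatty acyl-CoA synthetase of sporopollenin synthesis, had 72.8 CPM in replicate 2, against 49.4 and 28.3 CPM in replicates 1 and 3. *LAP5*, a polyketide synthase of the same pathway, had 54.7 CPM in replicate 2, against 33.8 and 23.2 CPM, and the tapetal gene *A9* had 35.3 CPM, against 26.8 and 18.5 CPM. Mature pollen genes ran the other way: of 10 genes of at least 1 CPM all were lowest in replicate 2, and 7 were highest in replicate 3 and lowest in replicate 2, an order held by 20.9% of all genes. *AGP6* and *AGP11*, arabinogalactan proteins of pollen, had 259 and 144 CPM in replicate 2, against 368 and 223 CPM in replicate 1 and 414 and 243 CPM in replicate 3.

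**Figure D5:**
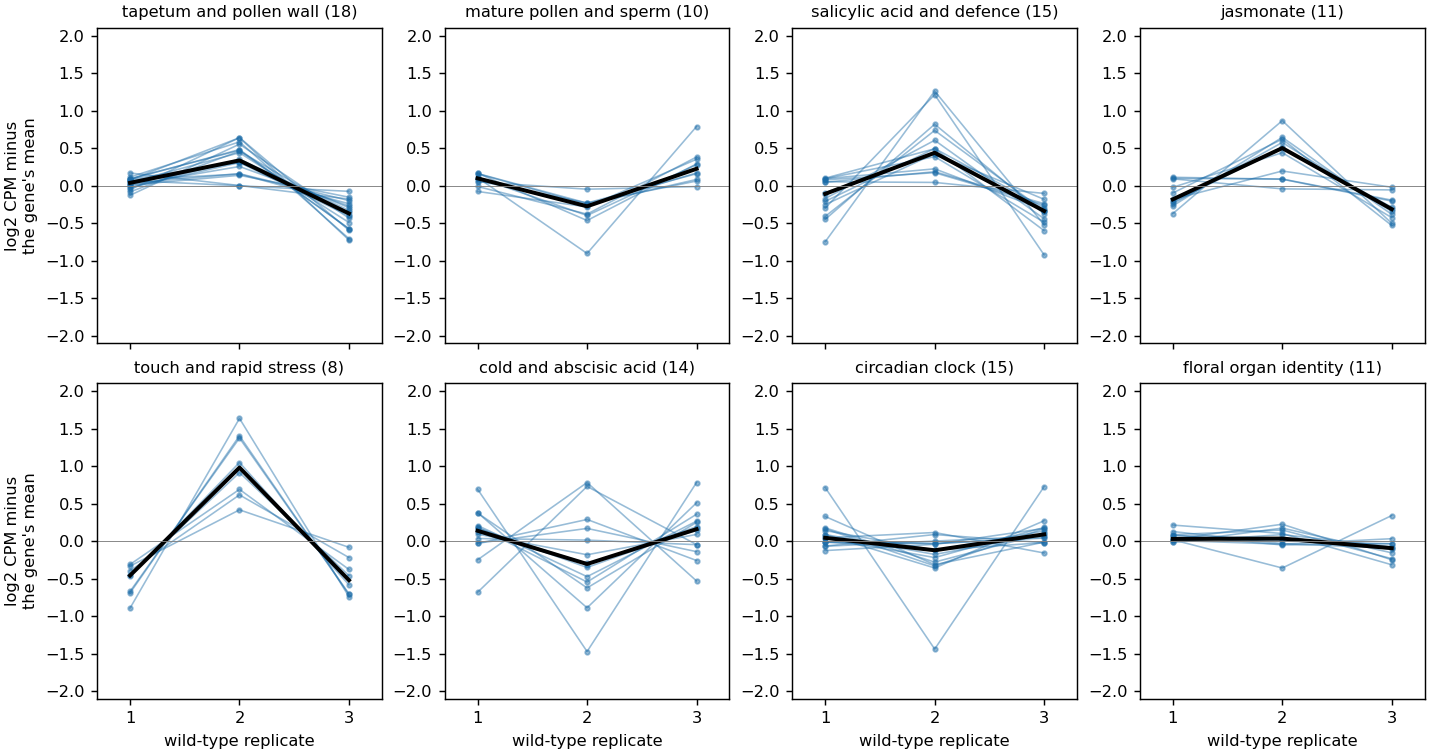
Log2 CPM of each gene minus its mean over the 3 wild-type replicates, for 8 gene lists (number of genes of at least 1 CPM in brackets); thin blue lines are genes and the black line is the list's median. Tapetum genes peak in replicate 2 and are lowest in replicate 3, mature pollen genes are lowest in replicate 2, touch genes stand above their mean in replicate 2 only, and floral organ identity genes stay near their mean.

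Of the organ identity genes 4 of 11 were highest in replicate 2, beside 36.9% of all genes, and 8 of 11 lowest in replicate 3, beside 37.7%. Their median log2 ratio in replicate 3 was -0.14, against -0.57 in the tapetum list. Over all genes the orders were more even, with 30.8% of genes highest in replicate 1, 36.9% in replicate 2 and 32.3% in replicate 3, and 25.7%, 36.7% and 37.7% lowest in replicates 1, 2 and 3.

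A slight dependence on transcript length moved with the replicates. In the quintile of genes of at least 10 CPM with the shortest transcripts (median 972 bases) the median log2 ratio to the other 2 was 0.07 in replicate 3, and in the quintile with the longest (median 3246 bases) it was -0.11, while in replicate 2 these medians were -0.05 and 0.06. The rank correlation of length and ratio across 14170 genes was -0.30 in replicate 3, 0.18 in replicate 2 and 0.14 in replicate 1. Ribosomal protein genes, with a short median of 979 bases, were highest in replicate 3 and lowest in replicate 2 in 95 of 306 cases (31.0%), and with the median of 20 length bins subtracted from each replicate in 61 (19.9%), near the 21.6% of all genes after the same step. The anther lists kept their order under this step, since the same 16 of 18 tapetum genes and the same 7 of 10 pollen genes held it. Of the salicylic acid list the same 10 of 15 genes were highest in replicate 2 and lowest in replicate 3 before and after it. Depth, the 18S share and the chloroplast share of replicate 2 also differed, as given above, and their part in these orders was not tested.

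Of the 15 genes of at least 10 CPM with the largest CVs, 14 were highest in replicate 2. The exception was *XPL1*, a phosphoethanolamine methyltransferase, which had 8.76, 19.0 and 66.9 CPM and a CV of 98.3%. AT3G17998, an upstream locus next to it, had 72.4, 55.7 and 17.7 CPM, and the sum of both was 81.1, 74.7 and 84.7 CPM with a CV of 6.28%, so the sum varied far less than either locus. For *RALFL26*, a secreted peptide gene, and its neighbour *CYP82G1* the sum also varied less than either, with a CV of 5.92%. They had 29.6 and 41.0 CPM in replicate 2, against 50.5 and 19.0 CPM in replicate 1 and 59.4 and 18.1 CPM in replicate 3. Their values were whole numbers of reads, whereas those of *XPL1* and AT3G17998 were not. Besides, 82 loci of at least 10 CPM in 39 groups had the same CPM in all replicates, of which 58 loci in 27 groups lay within 5 locus numbers of each other. Such pairs are counted as separate genes in the totals above.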

How the data were processed

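Per the labels and the study's methods, total RNA of pooled plants was made into stranded libraries from polyadenylated RNA (NEBNext Ultra II Directional kit), and the authors used bowtie2 to align reads to TAIR10, RSEM to assign them to genes and edgeR for their comparison, and the versions are not given in the sources used here. The deposited table holds CPM, scaled by the authors to an effective library size, not logged and already filtered for low values by a rule not given in the sources used here. Its columns for the quadruple mutant and those of the authors' own comparison (log2 fold change, p-value and FDR) were not used. Raw reads were not analysed here.

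From the CPM, the value of 1 read was found per replicate from the spacing of low values (under 50 reads, 92.2% to 92.5% of them whole within 0.005 read). Genes were matched by locus to RefSeq's annotation of TAIR10.1, and 199 loci without an entry there, 72 of the chloroplast and 47 of the mitochondrion among them, kept their identifiers only. Length is that of the first gene model. SD of log2 values used a pseudocount of 0.5 CPM. Python 3.11.15, numpy 2.4.6, pandas 2.3.3, scipy 1.17.1 and matplotlib 3.10.9 were used, and the scripts were tested on simulated data. One group of samples allows no test between conditions, so none was made.

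Genes were named by a rule: the 15 highest in CPM and per kb, all members of the lists, the mutated genes and, among genes of at least 10 CPM, the 15 largest and 15 smallest CVs and, for each replicate, the 10 genes farthest above and below the others. The genes described and the lists were chosen with earlier results of these data known. Chosen after the values were seen were the WRKY set and the other product names counted for replicate 2, the motifs TTGAC and CGCGTT, the length bins, leaving out the 18S locus, the sums of neighbours, the identical values, and *TUB4*, *ABI2*, *HAI1*, *WRKY18*, *CYP82G1*, *RALFL26*, AT4G27090 and AT5G50360, which the rule did not name. Alternatives were other floors, levels, folds, scalings, pseudocounts and length measures, and leaving out each replicate.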

Additional observations from a re-analysis of the deposited data

How the results depend on the processing

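No paired analysis was possible because a single group of samples was described. The share of the 100 highest genes, 13.4% in CPM, was 14.8% per kb of transcript, 15.2% per kb of coding length and 11.8% without the 18S locus, and 13.2% to 13.6% when a replicate was left out. Leaving out a replicate gave a median CV of 7.19% to 9.80%, a median SD of log2 values of 0.10 to 0.14 and an excess CV of 9.51% to 13.6%, the highest being without replicate 1. A CV over a pair of values has a lower median by construction. Genes at least 2-fold from the other 2 replicates numbered 556 for replicate 2, and 260 from 5 CPM, 162 from 10 CPM and 1874 at 1.5-fold. For replicate 1 the number was 189, and 61, 30 and 791 under the same settings, and for replicate 3 it was 261, and 104, 62 and 1149. Replicate 2 had the largest number under each of these settings. The numbers for replicates 1 and 3 are not independent of it, since replicate 2 is part of the mean they are compared with. Ranked in CPM, 28.2% of promoters in the highest decile held site II (29.7% per kb) and the median transcript had 1846 bases (1339 per kb). Of 34 lists and classes, 22 had a median above the 50th percentile, and 23 without replicate 2. In CPM, not scaled by length, the list medians moved by a median of 2.73 percentile points, most for the arabinogalactan proteins (17.9). With length bins subtracted, 11 of 43 histone genes were highest in replicate 3 and lowest in replicate 2, and 17 without this step. The other 48 comparisons of a main value stayed within an SD, or within 1.5 times for counts. That SD was over the replicates, but for the CVs and the SD of log2 values it was over the values with each replicate left out. The latter were thus judged against their own scatter. Values near the floor of 3 reads, such as those of *PR1*, are limited by depth.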

Other observations

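Heat-inducible genes of the heat shock list were low, while the 65 heat shock proteins by product name had a median of 10.5 CPM per kb, at the 48.6 percentile. Of 13 genes of the heat shock list 9 had values, with a median of 5.58 CPM per kb (32.1 percentile), and the small heat shock proteins were the lowest, *HSP17.4* with 0.966, 0.555 and 0.861 CPM in replicates 1, 2 and 3. *HSFA2*, a heat stress factor, had 0.986 CPM in replicate 2, against 2.99 and 2.53 CPM in replicates 1 and 3, whereas *HSP101*, a chaperone, had 13.8 CPM in replicate 2, against 16.01 and 16.95 CPM.

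Ferritin and starvation genes were well expressed. Of 7 iron status genes 3 had values, all lowest in replicate 2, led by the ferritin gene *FER1* with 312 CPM in replicate 2, against 374 and 345 CPM. Of the 4 sugar starvation genes *ASN1*, an asparagine synthetase, was the highest per kb at 98.8 CPM per kb, and *DIN10* had 278 CPM in replicate 2, against 196 and 182 CPM.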
